A study of Mus musculus with 12 samples.

Results

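The genes described here are the nuclear-encoded subunits of the respiratory chain and of ATP synthase, measured by mRNA sequencing in H9c2 cells. They were chosen by name, as protein-coding genes called Nduf with a letter a, b, c, s or v (complex I), Sdha to Sdhd (complex II), Uqcr or Cyc1 (complex III), Cox4 to Cox8 (complex IV) and Atp5 (complex V), with assembly factors left out. The rule found 85 of the 54345 genes in the deposited table, of which 38 belong to complex I, 4 to complex II, 9 to complex III, 18 to complex IV and 16 to complex V. The rule uses names and no measured value, though the set was picked with earlier results of these data known. H9c2 is a cardiomyoblast line that the study describes as rat, whereas the labels give mouse as the organism and wild type as the genotype, and the genes carry mouse identifiers on the GRCm38 build. Its 12 libraries form 4 groups of 3, collected after 6 h of treatment. Unt cells were untreated, DOX cells received the anticancer anthracycline doxorubicin, D_DXZ cells received doxorubicin with the clinical cardioprotectant dexrazoxane, and D_MgHCF cells received doxorubicin with magnesium hexacyanoferrate nanocatalysts. The columns of these last 3 libraries are headed D_MgHCF, whereas the sample descriptions call them D_MgPB, and they were matched through the sample titles. There was no group with either protectant alone, and the doses in the sequenced cells are not given in the sources used here. Nothing in the labels says that the 3 libraries of a group came from separate cultures, so the p-values measure the spread between these libraries, which may be technical.

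The respiratory chain sits in the inner mitochondrial membrane. Complexes I and II take electrons from NADH and succinate, complex III passes them to cytochrome c, complex IV gives them to oxygen, and complex V uses the resulting proton gradient to make ATP. A few catalytic subunits are encoded by mitochondrial DNA, while the others are nuclear genes whose products are imported. Heart muscle depends on this pathway for most of its ATP, and doxorubicin is known to accumulate in mitochondria.

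Each library held between 16626514 and 19365119 reads on genes. The values are FPKM, read pairs per length of gene and size of library, and differences are given as log2 fold changes of FPKM + 1, which are smaller than the change itself in genes of low level. The scaling held in the deposited FPKM set the median gene equal between libraries. Divided by the total of reads on genes, the scaling was lowest in the DOX libraries (0.647 to 0.784) and in those of D_DXZ (0.747 to 0.892). Unt (1.32 to 1.38) and D_MgHCF (1.26 to 1.43) were close to each other, so differences between these pairs of groups depend on the scaling. The labelled cell type is myoblast, yet the myogenic regulators Myod1, Myf5, Myog and Pax7 were at or near 0 in all libraries (at most 0.126 FPKM, Myod1 in DOX replicate 2). Desmin (Des), a muscle filament, reached at most 1.57 FPKM. Of the cardiomyocyte markers, Gata4 was at 9.66, 10.3 and 10.8 FPKM in Unt, at 4.93, 2.95 and 2.17 in DOX and at 14.2, 17.9 and 25.5 in D_MgHCF. Tnnt2 (cardiac troponin T) had the opposite order at a low level, with 0.113, 0.0969 and 0.190 FPKM in Unt and 0.884, 0.855 and 0.970 in DOX. Vimentin (Vim), a filament of mesenchymal cells, was at 220, 242 and 268 FPKM in Unt, at 870 to 1136 in DOX and at 93.4 to 157 in D_MgHCF. The other fibroblast markers did not all follow Vim. Col1a1 was at 19.3 to 21 FPKM in Unt, 65.6 to 79.1 in DOX and 18.8 to 32.3 in D_MgHCF, Pdgfra at 0.592 to 0.828 in Unt and 0.264 to 0.405 in DOX, and Thy1 at or near 0. The part of these shifts in the results below was not tested. Fewer cells of a type and less RNA per cell cannot be told apart in such bulk RNA.

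Most subunits stood at high levels. The median over the 85 genes of the mean FPKM in Unt was 39.7, against 0.519 over the 25044 genes tested, and 72 of the 85 reached 10 FPKM in 3 or more libraries. Cox8a, a small subunit of complex IV, was the highest with 365, 373 and 402 FPKM in Unt. Atp5b, the catalytic beta subunit of ATP synthase, followed with 285, 304 and 328, and Cox6a1 and Cox4i1, both of complex IV, with 275, 287 and 302 and with 157, 159 and 172. At the other end, 6 genes had a mean under 1 FPKM in every group. Of these, Cox4i2, Cox6b2, Cox7b2, Cox8b and Cox8c are isoforms restricted to lung, testis or muscle. The sixth, Ndufs3, encodes a core subunit of complex I and is described further on.

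The filter on low values (FPKM above 0 in at least 3 libraries) kept 82 of the 85 genes and left out Ndufs3, Cox7b2 and Cox8c. The mean log2(FPKM + 1) over the tested genes of each complex gives the order of the groups. In complex I it was 4.90 ± 0.061 in Unt (SD, n = 3), 6.25 ± 0.15 in DOX, 5.98 ± 0.13 in D_DXZ and 4.96 ± 0.21 in D_MgHCF. Complex IV stood at 4.67 ± 0.027 in Unt, 5.98 ± 0.12 in DOX, 5.82 ± 0.14 in D_DXZ and 5.05 ± 0.33 in D_MgHCF. In the deposited FPKM all 5 complexes had the same order, with DOX highest, D_DXZ next, and D_MgHCF close to Unt. The order did not hold under every scaling. In TPM complex IV was highest in D_MgHCF (6.76, against 6.61 in DOX) and complex I was lower in D_DXZ (6.92) than in Unt (6.98), and after quantile normalization D_DXZ was slightly above DOX in complexes III and IV. The libraries of D_MgHCF spread more widely than those of the other groups, with complex IV between 4.70 and 5.35.

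**Figure D1:**
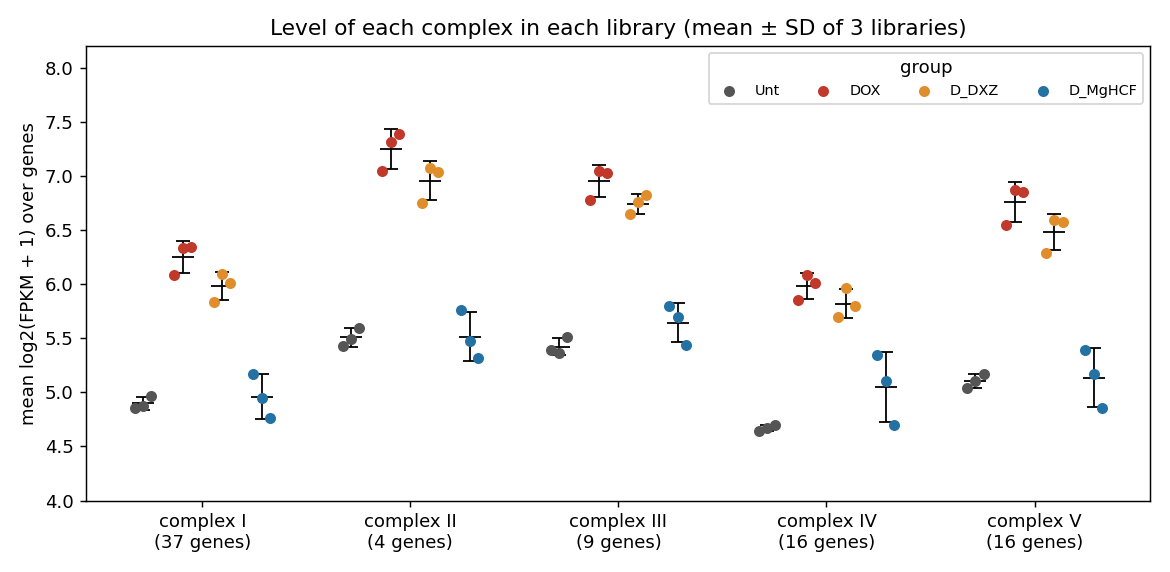
Mean log2(FPKM + 1) over the tested genes of each complex (y axis) in each of the 12 libraries, by complex (x axis) and group (colour). Points are libraries, and bars give the mean ± SD of 3 libraries. In each complex the 3 DOX and 3 D_DXZ libraries lie above all Unt and D_MgHCF libraries.

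The comparison of DOX with Unt asks what doxorubicin did to these genes. At an adjusted p under 0.05, 75 of the 82 genes rose, 1 fell and 6 were not called. Among all 25044 genes tested, 18.6% were called higher and 19.9% lower. The median log2 fold change was 1.52 over the 82 genes, 0.00 over all genes tested and 0.71 over the 5660 genes that reached 10 FPKM in 3 or more libraries (called genes of high level below). Among those 5660 genes 59.1% were called higher, and all 72 respiratory chain genes among them were. In 76 of the 82 genes every DOX library lay above every Unt library, which held for 25.3% of all genes (26.6% lay below). The change was larger in genes of higher level, with Pearson r = 0.57 between log2 fold change and log2(FPKM + 1) in Unt over the 82 genes, which share the same libraries. The added 1 shrinks changes at low level, and its part in this r was not tested.

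Complex I, the largest of the complexes, had 36 of 37 genes called higher, with a median log2 fold change of 1.37. Ndufa4, a small subunit first assigned to complex I and also known from complex IV, was at 49.5, 50.7 and 52.7 FPKM in Unt and at 214, 275 and 287 in DOX. Its mean was 5.08-fold higher, without overlap between the groups (log2 fold change 2.31 ± 0.19 SE, adjusted p = 1.4e-05). The accessory subunit Ndufa1 went from 55.0, 51.7 and 55.6 to 241, 262 and 262 FPKM. The core subunits, which carry out electron transfer, changed less, with a median log2 fold change of 1.17 over 6 genes against 1.37 over the 31 accessory ones, a difference that was not tested. The smallest change among them was in Ndufs7, which holds the cluster next to the quinone site, with 33.6, 37.3 and 39.9 FPKM in Unt and 46.3, 61.2 and 59.2 in DOX (log2 fold change 0.57 ± 0.13 SE, adjusted p = 0.0039). Ndufv2, a subunit of the NADH-oxidizing module, rose 1.70-fold and Ndufs8 2.06-fold.

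All 4 subunits of complex II, which is also succinate dehydrogenase of the citric acid cycle, were higher in DOX. The membrane anchor Sdhd went from 64.3, 69.6 and 70.5 FPKM in Unt to 236, 298 and 317 in DOX, 4.16-fold higher (log2 fold change 2.03 ± 0.14 SE, adjusted p = 1.1e-05). Sdhc, the other anchor, rose 3.73-fold, the flavoprotein Sdha 3.21-fold and the iron-sulfur subunit Sdhb 2.74-fold. The groups did not overlap for any of the 4.

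In complex III, all 9 genes were called higher. Uqcrh, the hinge protein next to cytochrome c1, showed 43.8, 43.1 and 45.3 FPKM in Unt and 206, 266 and 242 in DOX (log2 fold change 2.40 ± 0.20 SE, adjusted p = 1.3e-05). Uqcr11 rose 4.48-fold and Uqcrb 4.25-fold. The 4 larger subunits had a median log2 fold change of 1.03 against 2.07 over the 5 small accessory ones. Among these larger ones, cytochrome c1 (Cyc1) was at 49.5, 51.7 and 55.7 FPKM in Unt and at 76.6, 90.2 and 83.3 in DOX. The Rieske protein Uqcrfs1 rose 2.18-fold and the core protein Uqcrc2 2.21-fold. Uqcrc1, a structural core protein, was low, with 1.10, 1.28 and 2.17 FPKM in Unt and 3.66, 3.69 and 4.06 in DOX. Its call (adjusted p = 0.043) was lost when Unt replicate 1 or 2, any DOX library or D_MgHCF replicate 1 or 2 was left out, with log2 fold changes of 0.84 to 0.98.

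Complex IV had a median of 1.96, the highest of the complexes except after quantile normalization (0.34, below 0.47 in complex V, 0.44 in complex I and 0.39 in complex II), with 11 genes called higher, 1 lower and 4 not called of 16. Cox7b stood at 58.0, 55.9 and 56.5 FPKM in Unt and at 244, 342 and 344 in DOX, 5.45-fold higher (log2 fold change 2.41 ± 0.24 SE, adjusted p = 2.6e-05). Cox6c rose 5.22-fold, Cox6b1 4.81-fold, Cox8a 4.23-fold and Cox5a 3.99-fold. In complex V, 15 of 16 genes rose, with a median of 1.75. Atp5b reached 1342 FPKM in DOX replicate 3, from 285 to 328 in Unt, a 4.07-fold higher mean. Atp5g3, a gene of the proton-carrying c ring, rose 4.34-fold the epsilon subunit Atp5e 4.38-fold and the delta subunit Atp5d 3.70-fold. The gene of the alpha subunit, Atp5a1, was listed at 2.43, 4.42 and 3.55 FPKM in Unt and at 9.88, 14.6 and 10.6 in DOX, far below its partner Atp5b on the same per-length scale, although both subunits occur in equal number in the enzyme. Whether aligning a rat line to the mouse genome lowered this level was not tested. Atp5s, named coupling factor B and no structural subunit, was at 4.31, 4.32 and 3.81 FPKM in Unt and at 4.36, 5.12 and 3.94 in DOX, which overlap.

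**Figure D2:**
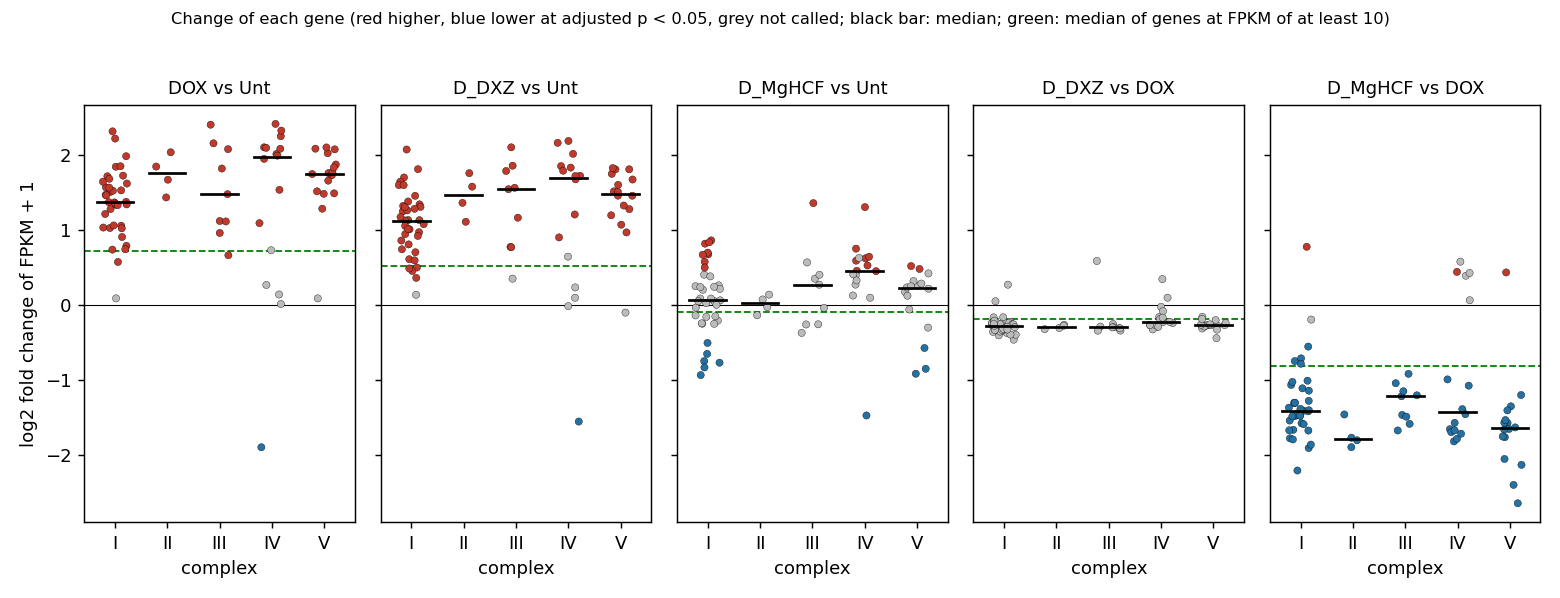
Log2 fold change of FPKM + 1 (y axis) of each of the 82 tested genes by complex (x axis), with a panel for each comparison. Colours give the call at adjusted p under 0.05, black bars the median of the complex and the green dashed line the median of the 5660 genes of high level. Most points lie above the green line in DOX vs Unt and below it in D_MgHCF vs DOX.

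How much of the rise is seen depends on the library scaling. As a share of all reads on genes, which uses no such scaling, the 85 genes took 0.973% ± 0.028 in Unt (SD, n = 3), 1.71% ± 0.045 in DOX, 1.60% ± 0.056 in D_DXZ and 1.12% ± 0.15 in D_MgHCF. The DOX share was 1.76-fold the Unt share. By complex, the share in DOX was 2.11-fold that in Unt for complex IV, 1.94-fold for complex V, 1.72-fold for complex II, 1.51-fold for complex III and 1.40-fold for complex I. Such shares weigh genes by their reads. Over the 12 libraries Atp5b held 596324 reads and Atp5d, the next of complex V, 74545, while in complex II Sdha held 111367 and Sdhd 38439. With FPKM set to the summed reads, the median log2 fold change in DOX vs Unt was 0.62 over the 82 genes and -0.19 over the genes of high level. In TPM, which scales by the sum of per-length values, these medians were 0.26 and -0.61, and quantile normalization gave 0.42 and 0.10. In TPM 37 respiratory chain genes were called higher and 12 lower, while 4.44% of all genes were higher and 40.8% lower. Of the 82 genes, 74 lay above the median of genes of high level as deposited, and 76 in TPM. As these scalings differ by 1 factor per library, which shifts all genes alike, the near-equal counts are no separate evidence. Quantile normalization, which is no such factor, left 59 above it. Called higher under all 5 scalings (the deposited one, voom, summed reads, quantile and TPM) were 30 genes, made up of 10 of 37 in complex I, 2 of 4 in complex II, 3 of 9 in complex III, 6 of 16 in complex IV and 9 of 16 in complex V. Cox7b, Ndufa4, Uqcrh, Sdhc, Sdhd and Atp5g3 were among them. Voom took the median ratios that the deposited FPKM already holds, so it is counted in the 5 as another fit at the same scaling. In DOX vs Unt, 26 of the 82 genes had fold changes of both signs over the 5 scalings. Ndufs7, Ndufs8, Ndufv1, Ndufv2, Uqcrfs1, Uqcrc2 and Cyc1, all core subunits, were among those that turned negative under both TPM and quantile normalization. Ndufs7 was called lower under 3 of the 5 scalings and higher under 2. Ndufs8, Ndufv2 and Cyc1 were each called lower under 2 and higher under 2.

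**Figure D3:**
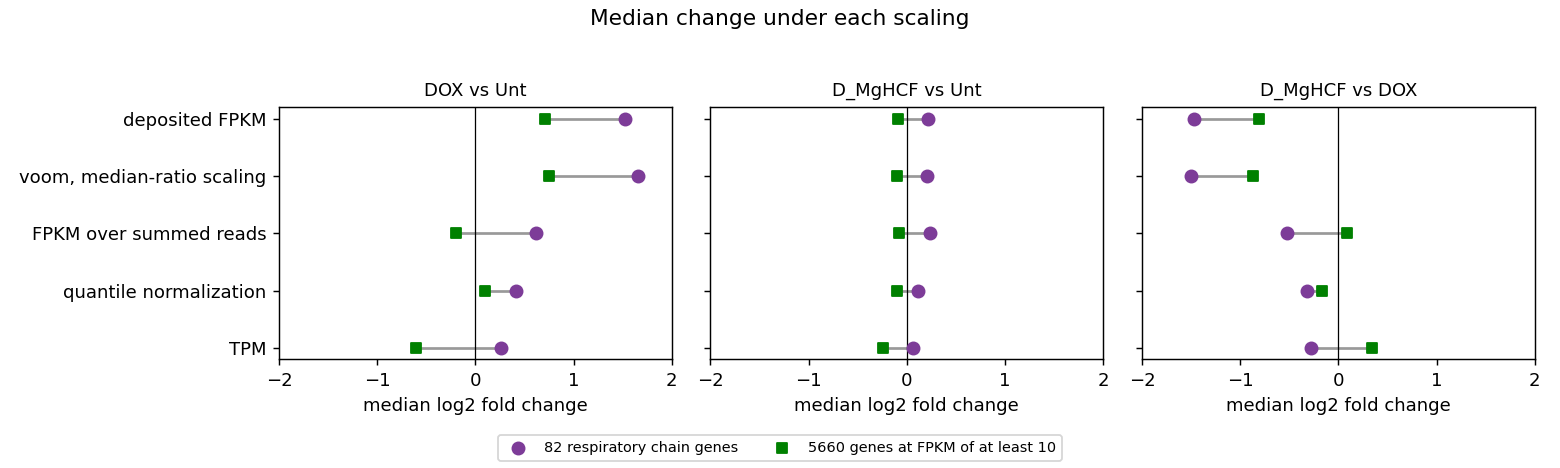
Median log2 fold change (x axis) of the 82 tested respiratory chain genes (circles) and of the 5660 genes of high level (squares) under 5 library scalings (y axis), for 3 comparisons. In DOX vs Unt the circle lies right of the square in each row, and both lie further left in TPM than in the deposited FPKM. In D_MgHCF vs Unt the circles stay between 0.07 and 0.23.

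Dexrazoxane, compared with doxorubicin alone, moved no respiratory chain gene past the threshold. With limma, 0 of 82 were called in D_DXZ vs DOX, as were 0.0% of all genes in the higher and 0.0% in the lower direction, and the lowest adjusted p of the 82 was 0.28. The count was also 0 under each scaling and with voom. At an unadjusted p under 0.05, 18 genes were lower and 0 higher, against 4.97% of all genes lower and 4.56% higher. The fold changes were small and mostly of one sign, with 77 of 82 below 0 and a median of -0.28, where genes of high level had a median of -0.18. In 21 genes every D_DXZ library lay below every DOX library (8.64% of all genes, with 7.66% above). Of these 21, 14 belong to complex I, which holds 37 of the 82 tested genes. Of the 14, 8 are among the 10 Ndufb genes, small membrane-arm subunits. Overlap was counted in the deposited FPKM and not under the other scalings. Ndufb10, for example, was at 127, 146 and 137 FPKM in DOX and at 94.0, 96.1 and 106 in D_DXZ, where Unt was at 60.4, 62.4 and 72.8. The direction of Ndufb10 in D_DXZ vs Unt turned with the scaling, from -0.59 to 0.60 on the log2 scale, called higher under 2 scalings and lower under 2. TPM brought the median to -0.10, with genes of high level at -0.01.

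Against Unt, D_DXZ resembled DOX, with which it shares the Unt control. The test called 74 genes higher and 1 lower (15.9% and 18.0% of all genes), with a median of 1.28, against 0.52 for genes of high level. The fall was in Cox6a2, as in DOX. A pair of genes stood out within D_DXZ and were chosen after their values were seen. Uqcrc1 was at 9.44, 2.82 and 8.33 FPKM and Ndufa12, an accessory subunit of complex I, at 62.6, 34.9 and 60.0, so replicates 1 and 3 were above all DOX libraries and replicate 2 was below them. The Ndufa12-like gene Gm15920, which matches Ndufa12 over 402 bases at 99.5% identity, ran the other way in these libraries, with 168, 269 and 195 FPKM, against 258, 308 and 296 in DOX. Whether reads of Ndufa12 were split between these 2 genes was not tested. For Uqcrc1 no near-identical transcript was found.

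The comparison of D_MgHCF with DOX asks what the nanocatalysts changed in cells given doxorubicin. It called 74 of 82 genes lower, 3 higher and 5 neither, where 20.1% of all genes were lower and 31.4% higher. The median was -1.47, against 0.07 over all genes and -0.81 over genes of high level, of which 61.1% were called lower. The largest fall was in the gamma subunit of ATP synthase, Atp5c1, the rotor shaft, at 230, 304 and 311 FPKM in DOX and 61.4, 41.6 and 32.9 in D_MgHCF (log2 fold change -2.64 ± 0.21 SE, adjusted p = 7.4e-06). Atp5g3 followed with 240, 305 and 316 FPKM in DOX and 64.2, 52.4 and 44.8 in D_MgHCF. In complex II, Sdhd and Sdha were at 0.265 and 0.288 of their DOX means. Cox5a and Cox7b of complex IV were at 0.274 and 0.297, and Uqcrb and Uqcr11 of complex III at 0.318 and 0.346. None of these groups overlapped. In TPM the same comparison called 40 genes lower and 11 higher, while 6.75% of all genes were lower and 53.9% higher, and the median was -0.28 against 0.34 for genes of high level. Under all 5 scalings, 26 genes were called lower, among them the 4 of complex II, Atp5c1 and Atp5g3. Over the 5 scalings 21 of the 82 genes had both signs. Of those named by the rule, Uqcrh, Cox7a2l, Cyc1 and Uqcrfs1 turned positive under TPM and quantile normalization, and Cox4i1 and Cox6a1 under quantile normalization.

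The comparison of D_MgHCF with Unt, whose library scalings were close, called 19 of 82 genes higher and 10 lower, against 24.3% and 15.7% of all genes, so the shares of 23.2% and 12.2% were near the background. The median log2 fold change was 0.21 and that of genes of high level was -0.09. All 10 of the lower genes and 17 genes in the higher direction were called so under all 5 scalings. The number of higher genes rested on single libraries, with 10 or 11 without Unt replicate 1 or 2 or D_MgHCF replicate 1 or 2, and 34 without D_MgHCF replicate 3. The number of lower genes stayed between 9 and 12.

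The genes below Unt included core subunits of complex I, and no tested core subunit was called above it. Ndufv2 was at 20.9, 22.5 and 28.8 FPKM in D_MgHCF, against 44.9, 45.8 and 49.1 in Unt (log2 fold change -0.94 ± 0.14 SE, adjusted p = 0.00061). Ndufs7 showed 20.4, 18.3 and 22.0 FPKM against 33.6, 37.3 and 39.9 in Unt. Ndufs8 was at 0.634 of its Unt mean, again without overlap. Ndufs1 and Ndufv1 were not called, with Ndufs1 at 11.9, 10.8 and 7.38 FPKM and Ndufv1, which binds NADH and the flavin, at 66.2, 54.8 and 53.2. Of the 31 accessory subunits, 2 were lower and 8 higher (6.45% and 25.8%, against 15.7% and 24.3% of all genes), so the higher share was near the background. The lower pair was Ndufa9 and Ndufab1, the mitochondrial acyl carrier protein. In complex V, 3 of 16 genes were lower (18.8%, near the 15.7% of all genes). Atp5c1 was at 0.541 of its Unt mean and Atp5g2 at 0.583. The peripheral stalk gene Atp5f1 was at 22.5, 22.1 and 20.5 FPKM, against 32.8, 34.2 and 31.3 in Unt. Log2 fold changes of Ndufs7, Ndufs8 and Ndufv2 lay between -1.18 and -0.64 over the 5 scalings.

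**Figure D4:**
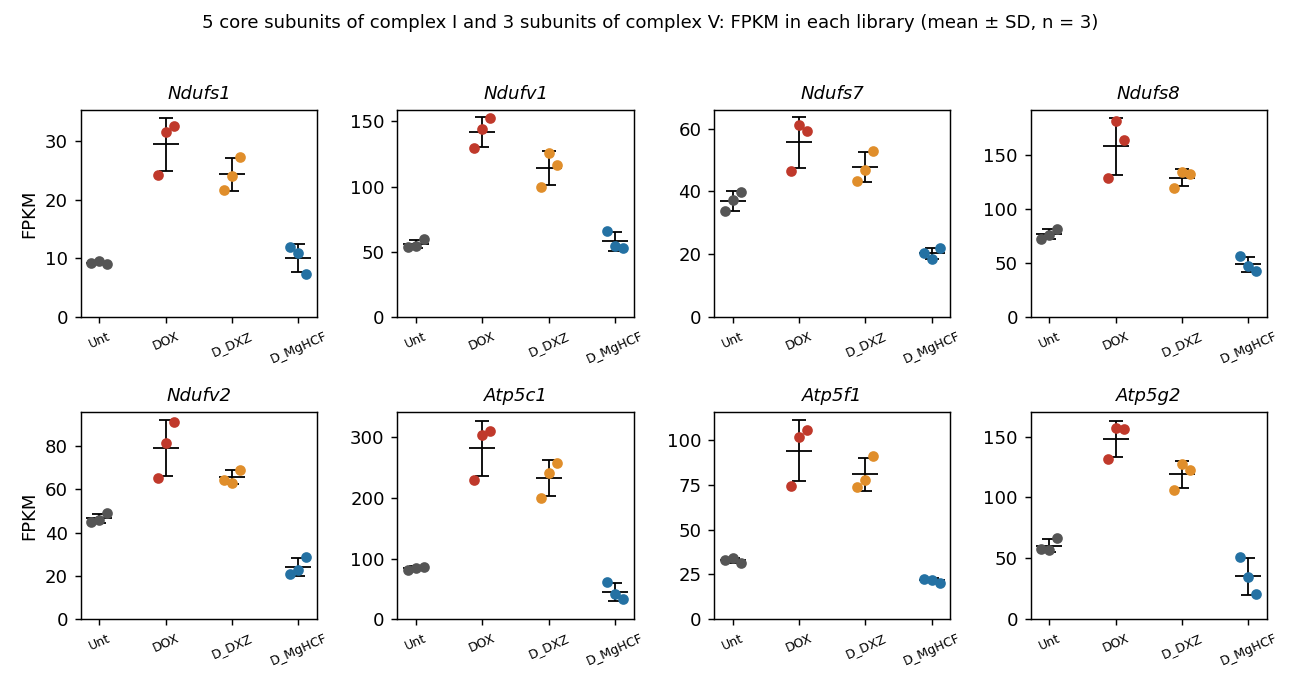
FPKM (y axis) in each library of 5 core subunits of complex I and of Atp5c1, Atp5f1 and Atp5g2, by group (x axis). Points are libraries, and bars give the mean ± SD (n = 3). In Ndufs7, Ndufs8, Ndufv2, Atp5c1, Atp5f1 and Atp5g2 all D_MgHCF libraries lie below all Unt libraries, while Ndufs1 and Ndufv1 overlap.

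Among the genes above Unt in D_MgHCF, Uqcrh was at 138, 132 and 81.6 FPKM, 2.66-fold its Unt mean and below its DOX libraries (log2 fold change 1.35 ± 0.20 SE, adjusted p = 0.00053). In complex IV, 8 of 16 genes were higher (50%, against 24.3% of all genes). Among them were Cox6c (1.76-fold), Cox6a1 (1.59-fold), Cox6b1 (1.55-fold) and Cox4i1, the main form of the largest nuclear-encoded subunit, at 301, 235 and 221 FPKM. None of the 4 complex II genes was called, with log2 fold changes between -0.14 and 0.14.

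Several subunits of complex IV exist as a form found in most tissues and a form of heart and skeletal muscle or of other tissues. Cox6a2, the heart and muscle form of subunit 6a, was the single respiratory chain gene called lower in DOX vs Unt at the deposited scaling (12 were in TPM). It was at 4.56, 4.85 and 4.57 FPKM in Unt, 0.775, 0.573 and 0.254 in DOX, 2.00, 0.785 and 0.330 in D_DXZ and 2.24, 0.693 and 0.539 in D_MgHCF. All 9 libraries that received doxorubicin were below the 3 Unt libraries (DOX vs Unt log2 fold change -1.90 ± 0.33 SE, adjusted p = 0.00093), and the fall was called under all 5 scalings. Its counterpart Cox6a1 went from 275, 287 and 302 FPKM in Unt to 1106, 1320 and 1289 in DOX. Cox7a1, the muscle form of subunit 7a, had its highest mean in D_MgHCF, with 11.0, 7.34 and 4.95 FPKM against 2.30, 3.04 and 1.99 in Unt (log2 fold change 1.30 ± 0.31 SE, adjusted p = 0.0084). In DOX it was at 3.69, 6.41 and 4.20 FPKM, above Unt without overlap but not called (adjusted p = 0.097). Cox7a2, its broad counterpart, was at 78.2, 85.5 and 87.6 FPKM in Unt and 290, 407 and 393 in DOX. Cox7a2l, which helps to join complexes III and IV into supercomplexes, rose 2.15-fold in DOX and returned to 1.09-fold of Unt in D_MgHCF.

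Ndufa4l2, a relative of Ndufa4 known as a target of the hypoxia factor HIF-1, was at 3.09, 1.69 and 1.71 FPKM in D_MgHCF and between 0.436 and 1.25 in the other 9 libraries. It was called against both Unt (2.98-fold) and DOX (2.64-fold, log2 fold change 0.77 ± 0.20 SE, adjusted p = 0.0096). The call against Unt held under all 5 scalings and that against DOX under 4. Ndufa4 itself was at 83.9, 73.0 and 50.3 FPKM in D_MgHCF. Atp5s was also higher in D_MgHCF, with 5.53, 7.36 and 6.27 FPKM. Its rise over DOX lost the call with voom and without DOX replicate 3 or D_MgHCF replicate 2. It was called under 3 of the 5 scalings, with log2 fold changes from 0.20 to 1.61. Cox6b2, a testis form, was at 0.601, 0.532 and 0.0735 FPKM in D_MgHCF and at most 0.0595 elsewhere, and Cox4i2 at 0.604, 0.548 and 0.259, values too low to read beyond their detection. Cox8b was above 0 in 4 libraries, at 0.113 to 0.764 FPKM. Cox7b2 was listed at 0 in all libraries, and Cox8c above 0 in D_MgHCF replicates 1 and 2 alone, at 0.416 and 0.172 FPKM.

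**Figure D5:**
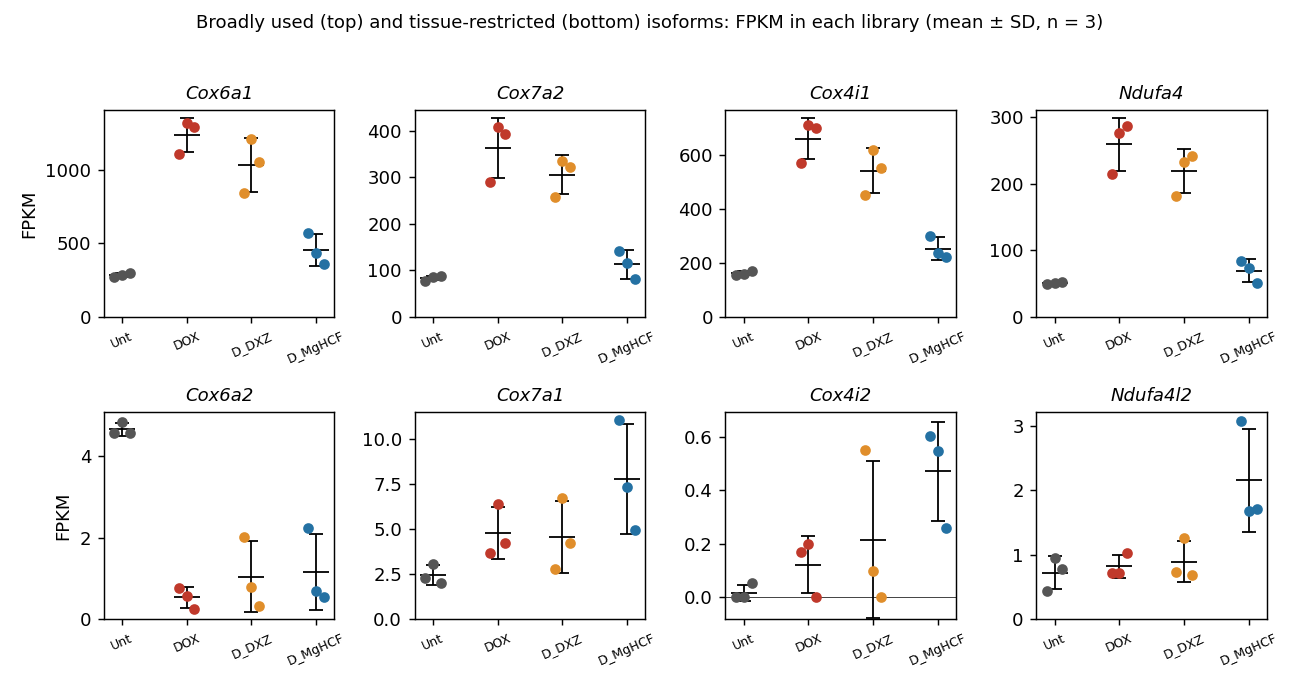
FPKM (y axis) in each library of 4 broadly used isoforms (top row) and their tissue-restricted relatives (bottom row), by group (x axis). Points are libraries, and bars give the mean ± SD (n = 3). The top row is highest in DOX and D_DXZ, whereas Cox6a2 is highest in Unt, and Cox7a1, Cox4i2 and Ndufa4l2 have their highest mean in D_MgHCF.

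The 3 genes of the ATP synthase c ring encode the same mature protein with different import sequences. In DOX, Atp5g1 rose 2.90-fold, Atp5g2 2.45-fold and Atp5g3 4.34-fold. In D_MgHCF they parted, with Atp5g1 at 25.6, 25 and 16.3 FPKM, above or within the 16.1, 18.2 and 19.2 of Unt, and Atp5g2 at 51.1, 34.2 and 20.3, below the 57.9, 57.0 and 66.3 of Unt. Atp5g3 was at 64.2, 52.4 and 44.8 FPKM in D_MgHCF and 63.7, 60.8 and 74.0 in Unt, which overlap.

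Because most of these genes moved together, their promoters were searched for sites of factors known for respiratory genes. RefSeq windows (GRCm38.p6, 250 bases before to 50 after the start) matched 69 of the 85 genes. The NRF1 site, searched as GCGCANGCGC on both strands, was present in 17 of 69 (24.6%) and in 5.19% of all 27025 genes with a window. The ETS core CGGAAG, bound by NRF2 (GABP), was present in 39.1% against 18.8%, and the YY1 site AANATGGC in 24.6% against 6.96%. The ERR site TCAAGGTCA was in only 2 of the 69 (2.90%, against 0.466%). The 27025 genes were not matched to the 69 in level. Genes with the NRF1 letters did not stand apart in response. Their median log2 fold change was 1.64 in DOX vs Unt, against 1.53 over the 50 tested genes with a window and no such letters, and -1.46 against -1.47 in D_MgHCF vs DOX. A window of each complex is shown to let the site be seen in its place, 5′ to 3′ on the strand of the gene, with NRF1 matches on either strand in capitals. The windows lie at chr16:37654319-37654618 (minus strand) for Ndufb4 of complex I, chr9:50603800-50604099 (minus) for Sdhd, chr9:108936398-108936697 (plus) for Uqcrc1, chr5:115348909-115349208 (minus) for Cox6a1 and chr2:10080383-10080682 (minus) for Atp5c1.
Ndufb4: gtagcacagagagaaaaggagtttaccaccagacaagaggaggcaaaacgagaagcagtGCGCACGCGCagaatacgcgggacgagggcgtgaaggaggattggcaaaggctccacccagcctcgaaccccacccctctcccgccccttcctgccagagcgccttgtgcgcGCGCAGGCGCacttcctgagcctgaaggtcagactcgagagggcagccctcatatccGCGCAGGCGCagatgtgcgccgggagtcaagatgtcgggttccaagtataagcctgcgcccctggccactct
Sdhd: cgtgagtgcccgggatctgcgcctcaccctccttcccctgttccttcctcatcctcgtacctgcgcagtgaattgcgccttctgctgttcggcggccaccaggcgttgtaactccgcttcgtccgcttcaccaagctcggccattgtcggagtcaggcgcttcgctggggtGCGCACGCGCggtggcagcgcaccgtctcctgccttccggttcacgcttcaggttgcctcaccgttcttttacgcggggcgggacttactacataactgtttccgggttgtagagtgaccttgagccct
Uqcrc1: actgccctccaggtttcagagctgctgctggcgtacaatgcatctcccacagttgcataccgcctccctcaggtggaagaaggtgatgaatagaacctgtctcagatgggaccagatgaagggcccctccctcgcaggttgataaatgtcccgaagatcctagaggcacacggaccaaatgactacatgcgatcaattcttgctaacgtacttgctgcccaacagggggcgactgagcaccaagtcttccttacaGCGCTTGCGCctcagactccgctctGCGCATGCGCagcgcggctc
Cox6a1: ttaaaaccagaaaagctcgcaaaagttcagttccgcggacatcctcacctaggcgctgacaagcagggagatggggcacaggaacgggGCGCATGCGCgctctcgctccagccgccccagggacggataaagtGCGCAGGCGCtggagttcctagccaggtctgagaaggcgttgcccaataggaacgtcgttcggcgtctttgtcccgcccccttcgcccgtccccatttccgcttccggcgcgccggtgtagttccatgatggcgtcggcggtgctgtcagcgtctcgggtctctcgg
Atp5c1: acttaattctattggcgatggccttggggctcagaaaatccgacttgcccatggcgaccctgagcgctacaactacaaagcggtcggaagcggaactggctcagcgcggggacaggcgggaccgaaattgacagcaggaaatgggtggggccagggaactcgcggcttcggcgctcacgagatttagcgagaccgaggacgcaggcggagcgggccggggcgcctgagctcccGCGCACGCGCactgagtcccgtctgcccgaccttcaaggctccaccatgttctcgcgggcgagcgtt
These 5 genes responded alike to doxorubicin in direction and differed in size, from a log2 fold change of 0.96 in Uqcrc1 to 2.10 in Cox6a1.

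Other genes of oxidative phosphorylation behaved less uniformly. Of 48 assembly factors, which build the complexes without staying in them, 45 were tested, and in DOX vs Unt 16 rose, 16 fell and 13 were not called, with a median of 0.13. Higher and lower genes made up 35.6% each, against 18.6% and 19.9% of all genes. Among those that rose were Cox14 (log2 fold change 1.68), Acad9 (1.54) and Pet100 (1.55), and among those that fell were Tmem186 (-2.25), Cox10 (-1.55), which makes heme O for complex IV, and Ndufaf4 (-1.32). In D_MgHCF vs Unt 23 assembly factors were lower and 4 higher, with a median of -0.46. These shares were 51.1% and 8.89%, against 15.7% and 24.3% of all genes. Cytochrome c (Cycs), the carrier between complexes III and IV, was at 21.2, 23.6 and 24.5 FPKM in Unt, 90.7, 110 and 112 in DOX and 38.0, 38.8 and 36.0 in D_MgHCF, and Atpif1, the inhibitor of ATP synthase, rose in DOX as well (log2 fold change 1.67). The 13 mitochondrially encoded subunits had 5 called higher (38.5%, against 18.6% of all genes), 0 lower and a median of 0.39 in DOX vs Unt. These rises were in mt-Co1, mt-Co2, mt-Co3, mt-Atp6 and mt-Nd6. mt-Cytb was at 1266, 1452 and 1240 FPKM in Unt and 932, 874 and 742 in DOX, which was not called. In D_MgHCF vs Unt 6 of the 13 were higher and 0 lower, against 24.3% and 15.7% of all genes. The share of reads on genes of these 13 was 1.21% ± 0.13 in Unt (SD, n = 3), 1.91% ± 0.071 in DOX, 2.11% ± 0.19 in D_DXZ and 2.36% ± 0.61 in D_MgHCF. The D_MgHCF libraries ran from 1.66% to 2.77%, and replicate 3 (1.66%) lay below all DOX libraries (1.83% to 1.97%). Poly(A) selection captures these transcripts unevenly, so their levels are not compared with those of nuclear genes.

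Some of the 85 genes could not be measured with certainty. Ndufs3, at chr2:90894634-90904827, was listed at 0 in all 12 libraries, as were its neighbours C1qtnf4 and Kbtbd4, and Celf1, an RNA-binding protein used by most cells, was at or near 0 (at most 0.00494 FPKM). Mtch2 and Fnbp4, also on this stretch of the chromosome, were at 3.20 to 13.2 and 4.17 to 15.4 FPKM. A gene model without a symbol, placed on a patch of the same region, had 0.0472 to 1.69 FPKM. The description of this model names the domain of the Ndufs3 subunit and a BTB/POZ domain. Whether Ndufs3 reads were assigned there was not tested, nor was how far the alignment of a line described as rat to the mouse genome set the levels of Ndufs3, Atp5a1, Uqcrc1 or other members. A near-identical transcript of another gene (at least 95% identity over at least 150 bases) was found for 36 of the 85, through pseudogenes, overlapping neighbours or repeats. For 15 of them the reads on such genes exceeded 10% of their own. Ndufs3, with 0 reads, is not counted among the 15. Its near-identical transcript, of Gm12251 (98.6% identity over 792 bases), had 875 reads over all libraries, and whether these belong to Ndufs3 was not tested. All 15 were called higher in DOX vs Unt, with a median log2 fold change of 1.53, against 60 of the 67 others with 1.51.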

How the data were processed

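RNA of 12 H9c2 libraries was poly(A) selected and sequenced as pairs. The authors aligned reads with HISAT2 2.0.5 to GRCm38 (mm10), as the submitters' processing notes list, and deposited FPKM per gene. FPKM multiplied by gene length gave whole reads for 100% of values (within 0.01 read), scaled between libraries by median ratios. As the unit is FPKM, limma 3.58.1 (R 4.3.3) was fitted on log2(FPKM + 1) with a trend, in 1 fit over the 4 groups, for the 25044 genes above 0 in at least 3 libraries. Tests were 2-sided, with Benjamini-Hochberg adjustment over all genes tested, and calls at adjusted p under 0.05. The method was tested on simulated data. Near-identical transcripts were searched with BLAST 2.17.0.

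The members and gene lists were chosen with earlier results of these data known. Genes named were, in each complex, the 2 largest called rises and falls without overlap (DOX vs Unt and D_MgHCF vs DOX), all of complex II, isoform families, core subunits and members that went against the others, 45 in all, apart from 1 gene that is not reported here. Other genes were named as examples after their values were seen. Alternatives were another pseudocount, filters, thresholds, 4 other scalings or fits (TPM, summed reads, quantile normalization and voom on recovered reads), 2-group fits, a replicate block and leaving out each library. Groups share control libraries between comparisons.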

Additional observations from a re-analysis of the deposited data

How the results depend on the processing

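Of the 240 counts of called genes recomputed under another setting, 208 stayed within 1.5 times the reported count, and the cause of the others was not tested. Leaving out 1 library made up 120 of the 240, of which 114 stayed. TPM moved 7 of 10 counts, quantile normalization 6 of 10 and summed reads 3 of 10. Counts of 0 that remained 0 are among those that stayed. In DOX vs Unt the higher and lower counts were 37 and 12 in TPM, and 45 and 7 after quantile normalization, and 3 were lower over summed reads. In D_DXZ vs Unt they were 30 and 13 in TPM, and 39 and 8 after quantile normalization, and 5 were lower over summed reads. At 10 FPKM or more the lower count was 0 in both, as Cox6a2 is left out. In D_MgHCF vs Unt 10 were higher with no filter and 10 in a fit of the 2 groups alone, 19 were lower in TPM, and a 2-fold minimum left 2 higher and 1 lower. In D_DXZ vs DOX 18 were lower at an unadjusted p. In D_MgHCF vs DOX the lower and higher counts were 40 and 11 in TPM and 34 and 6 after quantile normalization. The higher count there was 7 over summed reads, 1 in a fit of the 2 groups, and 0 at 10 FPKM or more or with a 2-fold minimum. Leaving out 1 library gave 74 to 75 higher and 1 lower in DOX vs Unt, 71 to 75 and 1 in D_DXZ vs Unt, 10 to 34 and 9 to 12 in D_MgHCF vs Unt, 0 and 0 in D_DXZ vs DOX, and 2 to 5 higher and 74 lower in D_MgHCF vs DOX, where 5 came without D_MgHCF replicate 3.

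Over the 5 scalings, 26 of the 82 genes had log2 fold changes of both signs in DOX vs Unt and 21 in D_MgHCF vs DOX. Among the genes named by the rule, those that changed sign in DOX vs Unt were, in TPM, Atp5g2 (-0.073), Atp5s (-1.16), Cox7a2l (-0.27), Cyc1 (-0.69), Ndufa4l2 (-0.77), Ndufs7 (-0.78), Ndufs8 (-0.34), Ndufv1 (-0.024), Ndufv2 (-0.61), Uqcrc2 (-0.23) and Uqcrfs1 (-0.24). Over summed reads they were Atp5s (-0.68), Cyc1 (-0.28), Ndufs7 (-0.36) and Ndufv2 (-0.20), and after quantile normalization Atp5g2 (-0.13), Cox7a2l (-0.47), Cyc1 (-0.57), Ndufs7 (-0.43), Ndufs8 (-0.44), Ndufv1 (-0.065), Ndufv2 (-0.42), Uqcrc2 (-0.034) and Uqcrfs1 (-0.29). In D_MgHCF vs DOX they were, in TPM, Cox7a2l (0.22), Cyc1 (0.28), Uqcrfs1 (0.054) and Uqcrh (0.17), over summed reads Cyc1 (0.033), and after quantile normalization Cox4i1 (0.22), Cox6a1 (0.21), Cox7a2l (0.42), Cyc1 (0.17), Uqcrfs1 (0.15) and Uqcrh (0.37).

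Same-numbered replicates had r over 0.1 in 2 of 18 pairs, from -0.31 to 0.31. They were best with their own number in 18 of 36 cases, each with 3 candidate libraries. The pairs over 0.1 were of DOX with D_DXZ, at 0.31 for replicate 1 and 0.22 for replicate 3, with 0.033 for replicate 2. D_DXZ with D_MgHCF had -0.31 for replicate 1. These values do not settle whether the numbers pair the libraries, and the main fit did not use them. With the replicate block, 74 genes were higher and 1 lower in DOX vs Unt, 16 and 10 in D_MgHCF vs Unt, and 4 and 74 in D_MgHCF vs DOX. In D_DXZ vs DOX the block gave 0 higher and 0 lower. With 3 libraries a group, a difference near the spread between libraries cannot be resolved, and genes under 1 FPKM rest on few reads.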
